A study of Mus musculus with 2 samples.

Results

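Early round spermatids are the haploid cells that the second meiotic division leaves behind, before the nucleus elongates and before protamines replace the histones. They were selected on marker transcripts, in single-cell RNA libraries of testes from 8-month-old mice. A barcode counted as a member when it met 4 limits on its raw UMIs, each UMI standing for 1 captured mRNA molecule. It had at least 5000 UMIs in all. Prm1, Prm2, Tnp1 and Tnp2, the protamine and transition protein genes of later spermatids, made up under 1.2% of them. The 6 spermatid genes Acrv1, Spaca1, Spaca3, Spaca7, Tssk1 and Sun5 summed to at least 8 UMIs and to at least as many as the 6 meiotic genes Piwil1, Pou5f2, Ccna1, Aurka, Mybl1 and Ovol1. The 3 Leydig cell genes Insl3, Cyp17a1 and Cyp11a1 summed to under 10. This gave 1319 members among 17362 barcodes of the wild type library and 389 among 17968 barcodes of the Igf2bp1 knockout library, 1708 of 35330 in all.

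Each genotype had 1 library made on the 10x Genomics droplet platform from testis tissue digested with collagenase, hyaluronidase and trypsin. The sample labels call the mutant Igf2bp1 KO and the design text calls it a conditional knockout. Neither text names the Cre driver, the deleted exons or the mouse strain. The design text speaks of 2 mice without saying how many gave each library. With 1 library per genotype no difference was tested and no p-value is given. Of the barcode sequences 106 occurred in both libraries, 6 of them among wild type members and 0 among knockout members. All intervals are 95% intervals of counting error and do not cover variation between animals.

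Round spermatids build the acrosome, the vesicle of enzymes that lets sperm reach and fuse with the egg, and lay down the first parts of the tail. They transcribe heavily, store many mRNAs for later translation, and switch the sex chromosomes back on after their silencing in meiosis. IGF2BP1 is an RNA-binding protein known for keeping bound mRNAs stable, among them mRNAs that carry the m6A methyl mark.

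The members were deep. Wild type members held 36254181 UMIs, with a median of 21799 per cell (lowest 5151, highest 175667) and 4735 genes. Knockout members held 9027701 UMIs, with a median of 18350 (5306 to 109134) and 4414 genes. The values that chose them describe them as follows. The 6 spermatid genes had a median of 63 UMIs per member in wild type and 58 in the knockout, the 6 meiotic genes 8 and 6, and the protamine group 0.737% and 0.655% of UMIs. At the protamine limit, 91 wild type and 21 knockout members lay just inside (1.0 to 1.2%) and 23 and 17 barcodes just outside (1.2 to 1.4%). At the spermatid minimum, 13 and 10 members had 8 to 10 UMIs, and 7 and 11 barcodes missed it with 5 to 7. At the meiotic limit, 148 and 25 members were within 0.1 of it, and 68 and 21 barcodes lay as close on the other side. The Leydig limit alone left out 5 of 1324 wild type barcodes and 23 of 412 knockout barcodes.

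The label was checked on Izumo1, the sperm protein that binds the egg receptor, which the limits do not use. At least 1 Izumo1 UMI was found in 76.2% of wild type and 75.3% of knockout members, and in 29.5% and 29.1% once each member was thinned to 5000 UMIs. In the lowest decile of barcodes by UMIs, read here as free RNA, the share was 10.9% and 13.1% at median depths of 969 and 1302 UMIs. Per UMI, Izumo1 stood higher there than in the members, at 120.6 and 107.3 CPM against 82.0 and 76.0 CPM. Its level stood at 10.6 UMIs per 1000000 (CPM) in wild type late spermatocytes and at 34.3, 67.1 and 111 CPM in the 3 stage bins of members defined below. In the knockout it stood at 9.39 CPM in late spermatocytes and at 41.0, 71.9 and 86.4 CPM in those bins. Izumo1 therefore followed the 6 genes of the gate in both libraries. CPM values are not scaled by transcript length, since each UMI tags the end of an mRNA.

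A pair of neighbouring gates was set for comparison with the same limits on depth and Leydig genes. Late spermatocytes had more meiotic than spermatid UMIs (686 wild type and 184 knockout barcodes). Late round spermatids had 1.2% to under 5% protamine and transition protein UMIs (148 and 308). The knockout late round gate was not clean: its median depth was 7646 UMIs against 19507 in wild type and its median protamine share was 3.41% against 1.91%, while the median over all knockout barcodes was 4.64%. Transcripts that led the members over both neighbours were therefore asked to do so in each library. Of the 15 that ranked highest by this measure, Ccdc173, a coiled-coil protein of ciliary microtubules, was the most abundant. It stood at 643 and 614 CPM in wild type and knockout members, 295 and 264 CPM in late spermatocytes, and 426 and 389 CPM in late round spermatids. Spag6, a protein of the central pair of the tail axoneme that has a near-identical copy, stood at 217 and 226 CPM against 23.1 and 28.2 CPM in late spermatocytes. Prss46, a serine protease, stood at 285 and 313 CPM against 64.3 and 57.3 CPM there, and Prr22, a proline-rich protein, at 222 and 239 CPM against 36.8 and 25.7 CPM. Others of the 15 were Akap14, Limch1, Smco4, Lrrc73 and Efcab12. In every one of the 15 the level in wild type members lay above that in the lowest decile.

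The promoters of spermatid genes are of interest because CREM, a transcription factor of haploid germ cells, binds the cyclic AMP response element. Crem itself stood at 498 CPM in wild type and 487 CPM in knockout members. The palindrome TGACGTCA, which reads the same on both strands, was searched in the 250 bases before each RefSeq start. It was present for Izumo1 and Ccdc173, in both at the 96th base before the start, and not for Acrv1 or the other 5 spermatid genes of the gate. The sequences of these 3 genes are shown 5′ to 3′ on the strand of the gene (RefSeq, GRCm38.p6), with the palindrome in capitals, because Izumo1 is the marker that the gate left out, Ccdc173 the most abundant of the 15 leading genes, and Acrv1 a gate gene without it. They lie at chr7:45621561-45621810 (plus strand), chr2:69789487-69789736 (minus strand) and chr9:36692970-36693219 (plus strand).
Izumo1: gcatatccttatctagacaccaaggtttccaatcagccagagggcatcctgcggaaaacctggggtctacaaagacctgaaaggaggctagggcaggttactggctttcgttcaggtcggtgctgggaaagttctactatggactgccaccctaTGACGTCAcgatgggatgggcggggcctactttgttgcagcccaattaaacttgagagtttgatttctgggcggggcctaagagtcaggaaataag
Ccdc173: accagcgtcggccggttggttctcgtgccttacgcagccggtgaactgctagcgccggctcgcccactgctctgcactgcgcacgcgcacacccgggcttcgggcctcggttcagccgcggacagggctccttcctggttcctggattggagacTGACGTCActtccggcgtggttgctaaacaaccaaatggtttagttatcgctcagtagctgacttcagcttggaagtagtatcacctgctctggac
Acrv1: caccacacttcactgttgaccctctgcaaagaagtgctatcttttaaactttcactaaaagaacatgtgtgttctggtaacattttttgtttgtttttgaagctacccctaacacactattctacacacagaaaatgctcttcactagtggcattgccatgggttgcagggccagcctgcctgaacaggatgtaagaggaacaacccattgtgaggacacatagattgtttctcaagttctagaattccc
Of 27025 genes with such a promoter 478 (1.77%) held the palindrome, against 63 of 1543 (4.08%) with at least 100 CPM in the members of both libraries. Of the 13 leading genes with a promoter sequence Ccdc173 alone held it. A match says only that these letters are there.

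The knockout library held fewer early round spermatids for its size. They were 30.4% (29.1 to 31.8) of the 4336 wild type barcodes with at least 5000 UMIs and 6.78% (6.14 to 7.46) of the 5738 knockout barcodes, 4.49-fold fewer (log2 −2.17, −2.32 to −2.01). The log2 ratio was −1.43 with a minimum of 10000 UMIs and −1.14 with the protamine limit at 0.6%. Part of this denominator is somatic: the 8 Leydig markers held 195 CPM over all wild type barcodes and 3086 CPM over all knockout barcodes. Among the 3 germ cell gates alone the shares were 61.3% (59.2 to 63.3) and 44.2% (40.8 to 47.5), a log2 ratio of −0.47 (−0.59 to −0.35), under 1.5-fold. Under the same changes that ratio was −0.10 and 0.36, so its size and its direction rest on where the gates end. Late spermatocytes were 31.9% and 20.9% of the 3 gates, and late round spermatids, with the reservation above, 6.87% and 34.96%. In such libraries fewer cells of a type and less RNA per cell cannot be told apart.

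**Figure D1:**
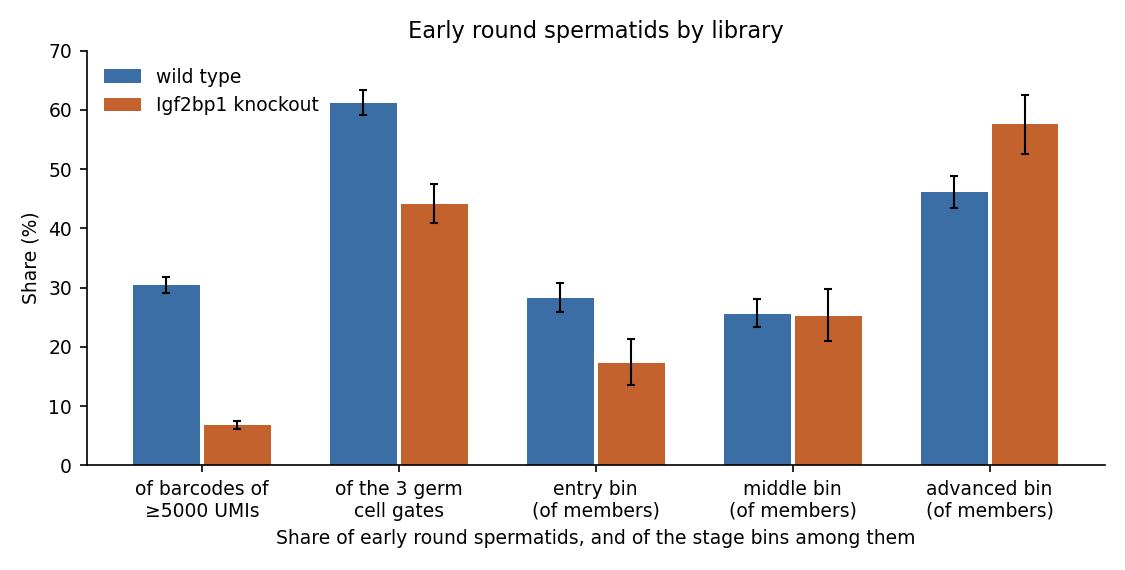
Share of early round spermatids (y axis, %) among barcodes of at least 5000 UMIs and among the 3 germ cell gates, and share of the 3 stage bins among the members, for the wild type and the Igf2bp1 knockout library. Bars are single libraries and lines are exact 95% Clopper-Pearson intervals: members were 30.4% and 6.78% of deep barcodes, and the entry bin 28.3% and 17.2% of members.

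Within the gate, members were ordered by the meiotic part, the 6 meiotic genes as a fraction of meiotic plus spermatid UMIs. Entry members had a meiotic part of 0.25 to 0.5, middle members 0.1 to under 0.25, and advanced members under 0.1. The bins are ranges of a score built from genes of the gate, not cell types: 121 wild type and 72 knockout members lay at 0.08 to 0.12, and 180 and 37 at 0.2 to 0.3. Wild type members were 28.3% entry (373 cells), 25.6% middle (338) and 46.1% advanced (608). Knockout members were 17.2% entry (67 cells), 25.2% middle (98) and 57.6% advanced (224). The entry share was lower in the knockout by 0.72 on the log2 scale (−0.72, −1.05 to −0.38). Median depth went from 19221 to 20924 to 24658 UMIs over the 3 bins in wild type and from 15458 to 19654 to 18981 in the knockout.

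Many transcripts differed between entry and advanced members in both libraries. Of 3622 genes outside the gate with at least 50 CPM in the entry or the advanced bin of each library, 983 (27.1%) were at least 1.5-fold higher in advanced than in entry members in both libraries, with intervals leaving out 1, and 813 (22.4%) were lower. Taken alone, 1027 genes were lower in wild type and 869 in the knockout. Since the bins come from the same cells, these counts are a description. The genes named here were chosen after their values were seen, as the largest of these changes. Tubb6, a beta tubulin, went from 12.4 to 35.9 to 176 CPM over entry, middle and advanced members in wild type and from 17.9 to 38.6 to 149.7 CPM in the knockout. Odf3, a protein of the tail's outer dense fibres, went from 51.1 to 151 to 522 CPM and from 58.8 to 185 to 445 CPM. Pfn3, a testis form of the actin-binding protein profilin, went from 61.1 to 171 to 595 CPM and from 96.1 to 209 to 584 CPM. Cypt4, a gene of a family whose proteins lie around the nucleus of the sperm head, went from 206 to 510 to 1656 CPM and from 288 to 609 to 1596 CPM. Adam29, a membrane protein of the sperm ADAM family, and Camk4, a calcium-dependent kinase of spermatids, rose 11.96-fold and 9.75-fold in wild type and 11.3-fold and 9.05-fold in the knockout.

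Other genes fell along the same order. Nek2, a kinase of the centrosome, went from 101 to 42.2 to 13.5 CPM in wild type and from 85.7 to 34.6 to 11.1 CPM in the knockout. Prc1, which bundles microtubules of the dividing spindle, went from 111 to 55.5 to 15.3 CPM and from 108 to 42.5 to 20.6 CPM. Diablo, a mitochondrial protein that can promote cell death, went from 202 to 110.3 to 29.4 CPM and from 222 to 93.8 to 33.7 CPM. Slc2a3, a glucose transporter, went from 131 to 60.6 to 22.3 CPM and from 162 to 42.1 to 22.2 CPM. Eif1b, a translation initiation factor, fell 4.52-fold and 5.51-fold. All 10 mitochondrially encoded genes that met the minimum fell in both libraries, and the mitochondrial share of UMIs went from 1.26% to 0.964% to 0.289% in wild type and from 1.30% to 0.998% to 0.577% in the knockout. Of 73 ribosomal protein genes 7 (9.59%) fell in both libraries, a smaller share than the 22.4% of all genes. None rose, against 27.1% of all genes.

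Summed levels of the gene lists also differed from bin to bin. Values here are summed CPM of a list without genes of the gate, and they describe each library with no test. The testis-specific serine kinases, which phosphorylate proteins of the forming sperm, went from 1024 to 1397 to 2248 CPM in wild type and from 1052 to 1471 to 2102 CPM in the knockout. Histones and chromatin packing genes went from 4625 to 5586 to 8947 CPM and from 4731 to 5839 to 8115 CPM. Outer dense fibre and fibrous sheath genes went from 10809 to 12117 to 14657 CPM and from 10879 to 12237 to 14106 CPM. Axoneme genes, the motor core of the tail, ran the other way, from 8199 to 7583 to 6635 CPM and from 7596 to 7127 to 6362 CPM. Genes of mRNA storage and the germ granule went from 13278 to 12356 to 11293 CPM and from 11968 to 11317 to 10446 CPM. The list of intercellular bridge genes, which keep sister cells joined, went from 646 to 568 to 479 CPM and from 642 to 597 to 530 CPM. Over all members Sept12 alone gave 414.4 of the 540.7 CPM of this list in wild type and 441.2 of 563.4 CPM in the knockout. The bridge sum therefore rests mostly on that gene, and the course of the other listed genes over the bins was not tested.

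**Figure D2:**
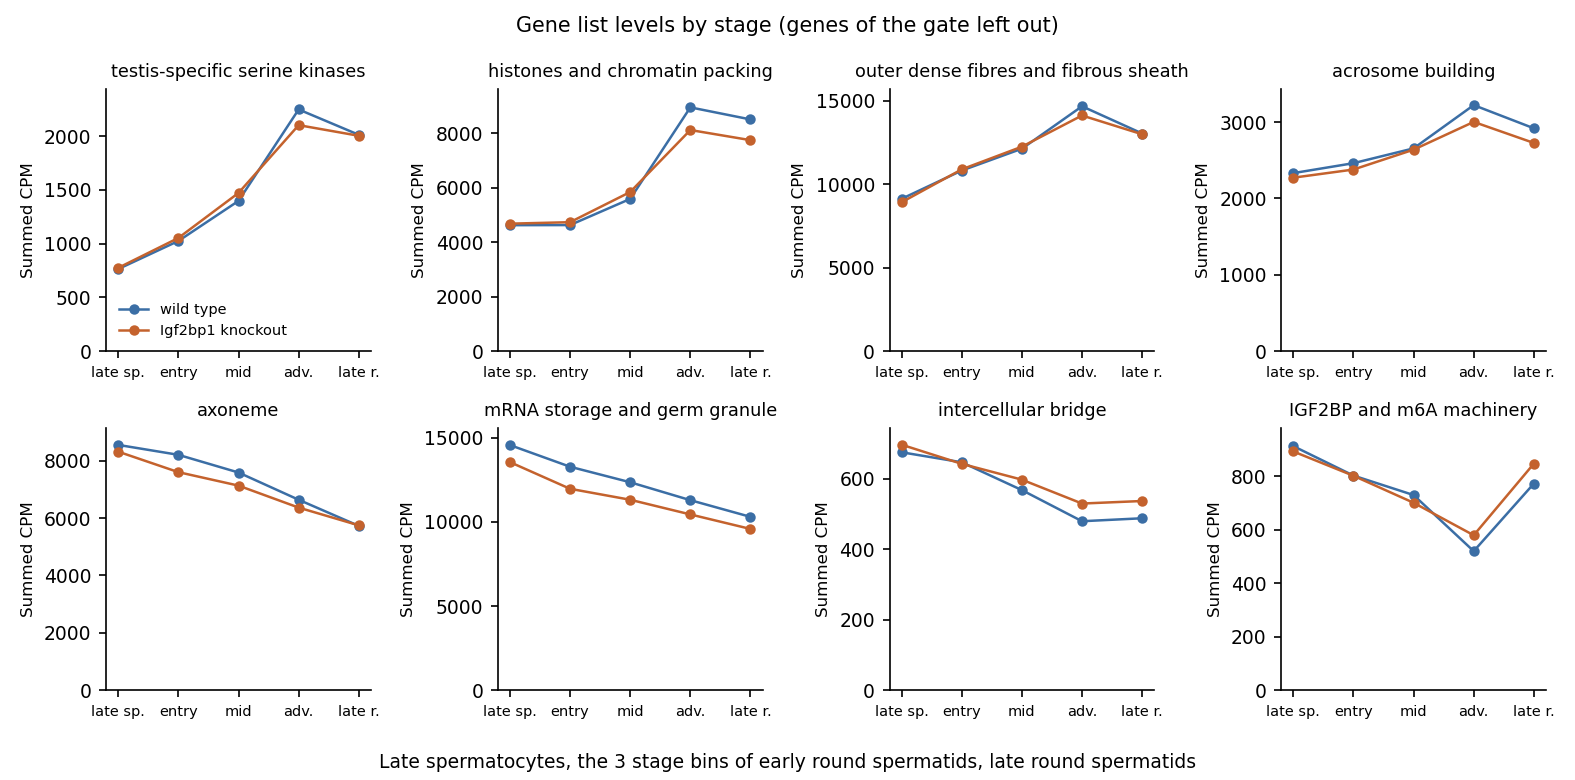
Summed CPM (y axis) of 8 gene lists, without genes of the gate, in late spermatocytes, in the entry, middle and advanced bins of early round spermatids, and in late round spermatids. Each line is 1 library: serine kinase, histone, outer dense fibre and acrosome building lists were higher in advanced than in entry members in both libraries, and axoneme, mRNA storage, bridge and m6A lists were lower.

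The sex chromosomes were read out more from bin to bin. In meiosis the X and Y are silenced, and they become active again in spermatids. X-linked genes gave 0.146% of UMIs in wild type late spermatocytes and 0.410%, 0.626% and 0.970% in entry, middle and advanced members. In the knockout they gave 0.172% in late spermatocytes and 0.508%, 0.717% and 1.01% in the 3 bins. Y-linked genes gave 0.00466% in wild type late spermatocytes and 0.0220%, 0.0311% and 0.0382% in the bins, and 0.00461%, 0.0250%, 0.0352% and 0.0399% in the knockout. Of the 40 X genes that met the 50 CPM minimum, 34 (85%) were higher in advanced than in entry members in both libraries and none was lower, against 949 of 3572 (26.6%) autosomal genes. The lowest decile of barcodes had an X share of 1.01% and 1.13%, so free RNA is rich in X transcripts as well. Taking the mean UMIs per barcode of the lowest decile as the free RNA of each member puts its part at 3.52% (wild type) and 5.60% (knockout) of member UMIs.

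**Figure D3:**
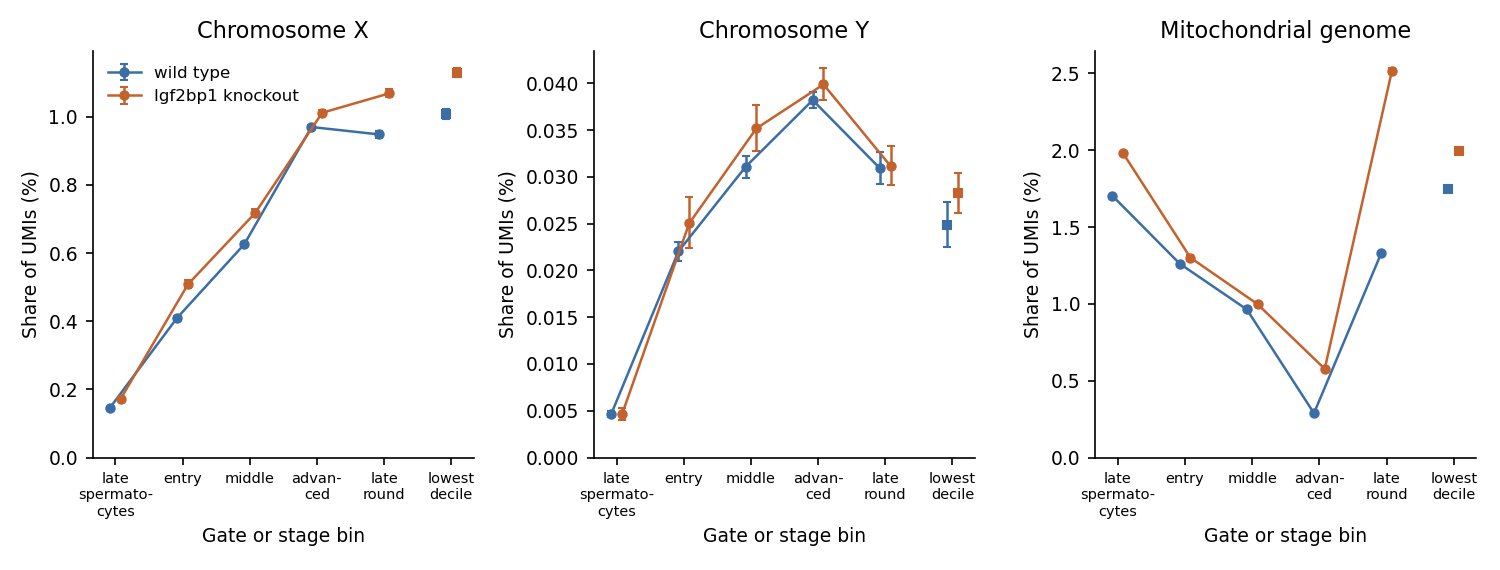
Share of UMIs (y axis, %) from genes of chromosome X, chromosome Y and the mitochondrial genome, in late spermatocytes, the 3 stage bins of early round spermatids, late round spermatids and, as squares, the lowest decile of barcodes. Points are single libraries with exact 95% intervals: the X share went from 0.410% to 0.970% over the bins in wild type and from 0.508% to 1.01% in the knockout.

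The gene-by-gene comparison of genotypes began with Igf2bp1 (chr11:95957163-96005940, mm10). Wild type members held 119 Igf2bp1 UMIs in 101 of 1319 cells (7.66%), 3.28 CPM (2.72 to 3.93). Knockout members held 26 UMIs in 24 of 389 cells (6.17%), 2.88 CPM (1.88 to 4.22). The log2 ratio of knockout over wild type was −0.19 (−0.86 to 0.43), so a difference was not detectable at this depth. After thinning to 5000 UMIs, 1.37% and 1.03% of members had a UMI, against 0.340% and 0.387% of the shallower lowest decile, whose level was 3.51 and 2.98 CPM. By bin the level was 0.813, 3.49 and 4.32 CPM in wild type and 0.745, 1.31 and 4.07 CPM in the knockout, while late spermatocytes held 11 UMIs (0.532 CPM) and 1 UMI (0.204 CPM). Since the deleted exons are not known, a 3′ tag outside them checks nothing about the deletion. Of its paralogs, Igf2bp3 stood at 69.8 and 66.7 CPM (log2 −0.07, −0.20 to 0.06), and Igf2bp2 had 8 and 2 UMIs.

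A gene is called higher or lower below when its level differed at least 1.5-fold between the libraries and the exact interval of the ratio left out 1. Of 12743 genes with at least 50 UMIs over both libraries, 497 (3.9%) were higher in knockout members and 355 (2.79%) were lower, 852 (6.69%) in all. With the free RNA of each library taken off, the split was 435 against 466. Among genes with at least 200 UMIs it was 123 against 187, so the excess of higher genes lay among sparse ones. The median log2 ratio over all measured genes was −0.00064, and neither of 2 other scalings moved it by more than 0.04. List members are counted from 20 UMIs on, where 826 of 15185 genes (5.44%) were higher and 401 (2.64%) lower.

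Genes of the acrosome and of egg binding and fusion stood close between the genotypes. Genes of the gate, whose levels the shared limits partly set, are counted in the lists below. They are 3 in acrosome contents, 4 in histones and chromatin packing, and 1 each in the acrosome building and manchette lists. The transcription factor, mRNA storage and serine kinase lists also hold 1 each. None of 24 genes of acrosome contents was called either way, with a median log2 ratio of −0.03 and a range of −0.48 to 0.25. The lowest was Acr, the acrosomal protease acrosin, at 288 CPM (283 to 294) and 207 CPM (197 to 216), a log2 ratio of −0.48 (−0.55 to −0.41) that is under the limit. Crisp2, a cysteine-rich secretory protein of the acrosome and tail, stood at 2972 and 2896 CPM, and Spink2, an inhibitor of acrosomal proteases, at 1821 and 1670.0 CPM. None of 25 acrosome building genes (median −0.09) and none of 25 genes of egg binding and fusion (median −0.04) was called. Spesp1, a protein of the equatorial segment where fusion occurs, stood at 348 and 258 CPM (log2 −0.43, −0.50 to −0.37), and Izumo1 at 82.0 and 76.0 CPM (−0.11, −0.23 to 0.01).

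Of 30 genes of the manchette, nuclear shape and head-tail coupling, none was called (median −0.03). Meig1, which brings cargo to the manchette and is among the most abundant transcripts of these cells, stood at 6452 and 6556 CPM. Ccdc38, another manchette gene, stood at 292 and 198 CPM (log2 −0.56, −0.63 to −0.49), just under the limit. Of 43 axoneme genes 1 was lower and none higher (median −0.13, range −0.76 to 0.13). That gene was Cfap52, a protein inside the doublet microtubules of cilia, which fell from 72.5 CPM (69.8 to 75.4) to 43.0 CPM (38.8 to 47.5), a log2 ratio of −0.76 (−0.91 to −0.60). None of 18 outer dense fibre and fibrous sheath genes (median 0.03) and none of 20 genes of the CatSper channel and ion transport (median −0.02) was called. Ropn1l, a fibrous sheath protein, stood at 4155 and 3870.0 CPM, and Ppp3cc, the sperm form of calcineurin, at 71.8 and 48.6 CPM (log2 −0.56, −0.71 to −0.42).

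Of 24 sperm energy enzymes 1 was higher and none lower (median −0.06). It was Pgam1, a glycolytic enzyme expressed widely in the body, with 192 and 76 UMIs (log2 0.67, 0.27 to 1.06), and it stood under the limit with at least 16 spermatid UMIs (0.52) and with thinned members (0.51). Ldhc, the sperm lactate dehydrogenase and the most abundant transcript of wild type members, stood at 6643 and 6476 CPM. No member of 3 further lists was called: 21 spermatid transcription factors (median −0.10), 11 testis-specific serine kinases (0.08) and 9 bridge genes (−0.06). Nor was any of 14 autophagy genes (−0.06) or 20 proteasome and ubiquitin genes (−0.05). These counts of called members lie at or below the background of 5.44% and 2.64%.

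Of 29 histone and chromatin packing genes 1 was higher and 2 were lower (median −0.11), against 5.44% and 2.64% of all genes at that minimum. Hist2h2aa1, a replication-type H2A histone, fell from 183 CPM (178 to 187) to 95.04 CPM (88.8 to 102), a log2 ratio of −0.94 (−1.05 to −0.84). The gap was alike in entry, middle and advanced members, at −0.97, −1.02 and −1.01, and late spermatocytes stood at −0.90. The lowest decile showed it as well, at 201 and 89.9 CPM. Histone genes of 1 cluster are near-identical copies, so reads could be split between them, and the value is uncertain for this copy alone. Other called genes lay up to 389612 bases away. Hist2h2be (−1.18), Gm17690 (−1.49), BC028528 (−2.75) and Prpf3 (−0.74) were lower, and Txnip (1.13) was higher. The cause was not tested. Kat5, a histone acetyltransferase, fell from 22.0 to 14.2 CPM (log2 −0.63, −0.91 to −0.36), and with equal weights of the bins it stood at −0.40, under the limit, and with thinned members at −0.53. Hist1h2aa, a testis H2A variant, had 9 and 14 UMIs, with 71.4% of the knockout ones in 1 cell, and its ratio was −0.79 with at least 16 spermatid UMIs per member. The protamine and transition protein genes, part of the gate, stood at log2 −0.30 for Prm1, −0.24 for Tnp1, −0.17 for Prm2 and −0.02 for Tnp2.

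Of 33 genes of mRNA storage and the germ granule, 1 was lower and none higher (median −0.08), against 2.64% and 5.44% of all genes. It was Pabpc6, a testis poly(A)-binding protein, at 147 and 94.7 CPM (log2 −0.64, −0.74 to −0.53). It falls steeply from entry to advanced members, and with equal weights of the bins its ratio was −0.40, under the limit. Pabpc1, the main poly(A)-binding protein, stood at 1983 CPM (1968 to 1997) and 1475 CPM (1450.0 to 1500.0), a log2 ratio of −0.43 (−0.45 to −0.40), with −0.48, −0.43 and −0.35 over entry, middle and advanced members. None of 23 genes of the IGF2BP family and the m6A machinery, which writes and reads the methyl mark that IGF2BP proteins bind, was called (median −0.04). Of the 16 mRNAs listed as known IGF2BP1 targets, 9 had the 20 UMIs needed. Of these 1 was higher and none lower (median −0.09), against 5.44% and 2.64% of all genes. That median was −0.31 with the protamine limit at 0.6%, −0.22 with at least 16 spermatid UMIs, −0.20 with under 3 Leydig UMIs and −0.46 with thinned members. The higher one was Mapt, a microtubule-binding protein, with 26 and 16 UMIs, which did not pass with the protamine limit at 0.6%. Kpna2, an importin, stood at 139 and 95.3 CPM (log2 −0.54, −0.65 to −0.44) and Actb, cytoplasmic actin, at 276 and 292 CPM (0.08, 0.02 to 0.14).

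**Figure D4:**
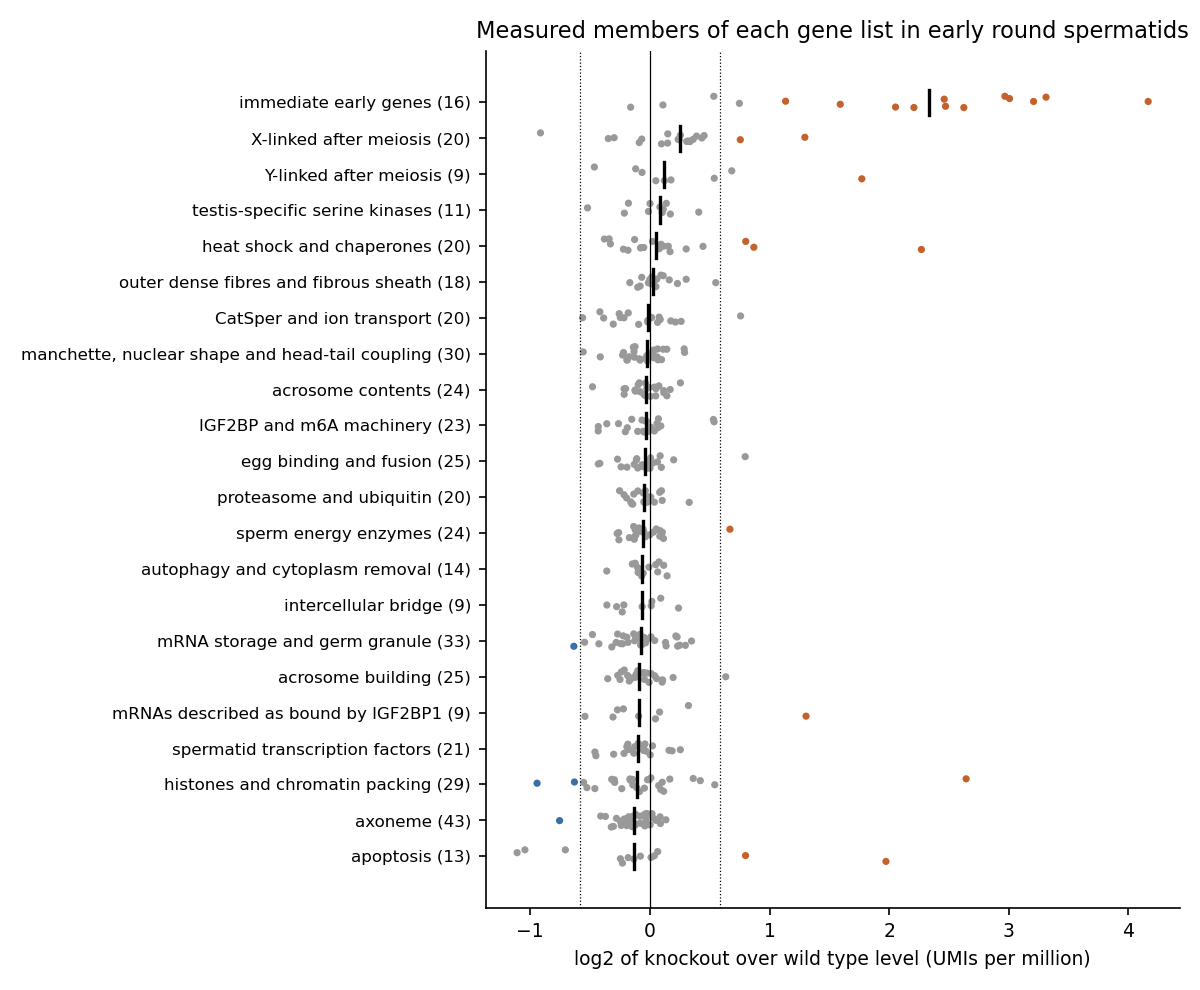
Log2 ratio of knockout over wild type level (x axis) of each measured member of 22 gene lists in early round spermatids, with the number of members in brackets and the median as a black bar. Orange and blue points are called higher and lower, and dotted lines mark 1.5-fold: 12 of 16 immediate early genes were called higher, and other lists had at most 3 called members.

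A larger share of X-linked than of autosomal genes was called higher, a difference that 1 library per genotype cannot test. Of 358 X genes with at least 50 UMIs, 48 (13.4%) were higher in knockout members and 8 (2.23%) were lower, against 446 (3.62%) and 346 (2.81%) of 12313 autosomal genes. The median log2 ratio was 0.18 on the X and −0.02 on autosomes, and 267 of the 358 X genes lay above 0. The X share of UMIs was 0.753% (0.750 to 0.756) in wild type and 0.862% (0.856 to 0.868) in knockout members, a log2 ratio of 0.20 that is far under 1.5-fold. It was 0.16 with equal weights of the bins, and the X median was 0.21 in entry, 0.14 in middle and 0.12 in advanced members. With the protamine limit at 0.6% 15 X genes were higher, and 25 with members thinned to 5000 UMIs. In late spermatocytes 25 of 172 X genes (14.5%) were higher and 11 (6.4%) lower, against 3.16% and 2.13% of all 11072 genes.

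The X genes called higher were mostly weakly expressed. Of 79 X genes with at least 1000 UMIs, 2 were called higher and none lower, and 65 lay above 0. These were Tmsb4x, a thymosin that binds actin monomers and is abundant in many somatic cells, at 102 and 158 CPM (log2 0.63, 0.54 to 0.72), and BC061195, at 78.3 and 123.6 CPM (0.66, 0.56 to 0.76). Usp26, a ubiquitin protease of the testis, went from 13.0 to 21.9 CPM (0.76, 0.51 to 0.998), Huwe1, a ubiquitin ligase, from 8.63 to 14.5 CPM (0.75) and Rbm3, an RNA-binding protein induced by cold, from 6.51 to 12.5 CPM (0.94). In the lowest decile Tmsb4x stood at 87.8 and 253 CPM and Rbm3 at 9.95 and 29.0 CPM. BC061195 stood there at 112 and 145 CPM, Usp26 at 7.61 and 11.9 CPM and Huwe1 at 12.9 and 14.9 CPM. For each of these genes the free RNA thus differed in the same direction. Among all genes with at least 20 UMIs 5.44% were higher and 2.64% lower. Of the 20 measured genes listed as X-linked after meiosis, Usp26 and Tex13b were higher and none lower (median 0.25). Neither passed with the protamine limit at 0.6% or with thinned members, where Usp26 stood at 0.36 and 0.53. Cypt1 stood at 257 and 322 CPM (0.32), Cypt2 at 90.8 and 123 CPM (0.43), and Tsga8, the most abundant of the list, at 748 and 703 CPM (−0.09). By bin, Cypt1 stood at 76.7, 169 and 382 CPM in wild type and at 147, 210.3 and 412 CPM in the knockout, so the gap was widest at entry. Of the X genes called lower, Ssxb6, Ssxb3 and Ssxb5, near-identical copies of a cancer-testis family, had 287, 191 and 70 wild type UMIs against 42, 27 and 5 knockout UMIs. Of 50 Y genes 3 (6%) were higher and 1 (2%) lower, and Eif2s3y, a translation factor needed in spermatogonia, stood at 47.2 and 45.1 CPM.

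Of the 22 lists, the highest median was that of immediate early genes, which cells switch on within minutes of stress or a growth signal. Of 16 measured, 12 were higher in knockout members and none lower, with a median log2 ratio of 2.33. The whole list summed to 225.6 CPM in wild type and 291.5 CPM in knockout members, mostly through Klf4. The 12 called genes together, a sum over genes already picked as higher, gave 671 UMIs in wild type, 18.5 CPM (17.1 to 19.96), and 825 UMIs in the knockout, 91.4 CPM (85.3 to 97.8). At least 1 of their UMIs was found in 28.1% (25.7 to 30.6) and 69.9% (65.1 to 74.4) of members. Fosb, a subunit of the AP-1 transcription factor, rose from 0.414 CPM (15 UMIs) to 7.42 CPM (67 UMIs), log2 4.17 (3.34 to 5.08). Fos, another AP-1 subunit of the same family, rose from 2.98 to 16.4 CPM (2.46, 2.09 to 2.83). Egr1, a zinc finger factor, rose from 71 to 109 UMIs (2.62, 2.18 to 3.08). With the protamine limit at 0.6%, and with members thinned to 5000 UMIs, 7 of the list were called. Klf4, which round spermatids are known to express, is the only abundant member of the list and stood at 171 and 153 CPM (−0.16, −0.25 to −0.08).

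RNA of several other cell types moved with this result. In the lowest decile of barcodes the same 12 genes stood at 53.3 CPM in wild type and 326 CPM in the knockout, above the members in both libraries, and over all barcodes at 75.5 and 956 CPM. In late spermatocytes they stood at 19.3 and 105.5 CPM. The 8 Leydig markers stood at 14.5 and 125 CPM in members and 115 and 717 CPM in the lowest decile. The 9 Sertoli markers stood at 34.5 and 146 CPM, the 7 macrophage markers at 3.89 and 33.1 CPM and the 7 B cell markers at 1.958 and 25.5 CPM. Of these lists 1 Leydig, 1 Sertoli, 0 macrophage and 4 B cell markers were at 0 in wild type members, and none in knockout members. Other classes differed less: T or NK cell markers stood at 21.05 and 25.7 CPM and spermatogonial markers at 13.1 and 15.2 CPM. Myoid markers stood at 3.03 and 4.65 CPM and endothelial markers at 1.57 and 2.77 CPM. Knockout members with no Leydig UMI (90 cells) had the 12 genes at 59.9 CPM (48.5 to 73.1), and wild type members with none (1108 cells) at 17.8 CPM (16.3 to 19.3). Knockout members with 1 or 2 Leydig UMIs (202 cells) had them at 118 CPM (108 to 129), with 86 UMIs in 1 cell. Those with 3 or more (97 cells) had them at 69.7 CPM (60.7 to 79.7), so the level did not rise steadily with Leydig UMIs. With the estimated free RNA taken off, 12 of the 16 genes were still called higher, while the summed level of all 16 was 224 and 274 CPM and the Leydig markers still stood at 10.8 and 90.0 CPM. The part of other cells' RNA in the higher genes was otherwise not tested.

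**Figure D5:**
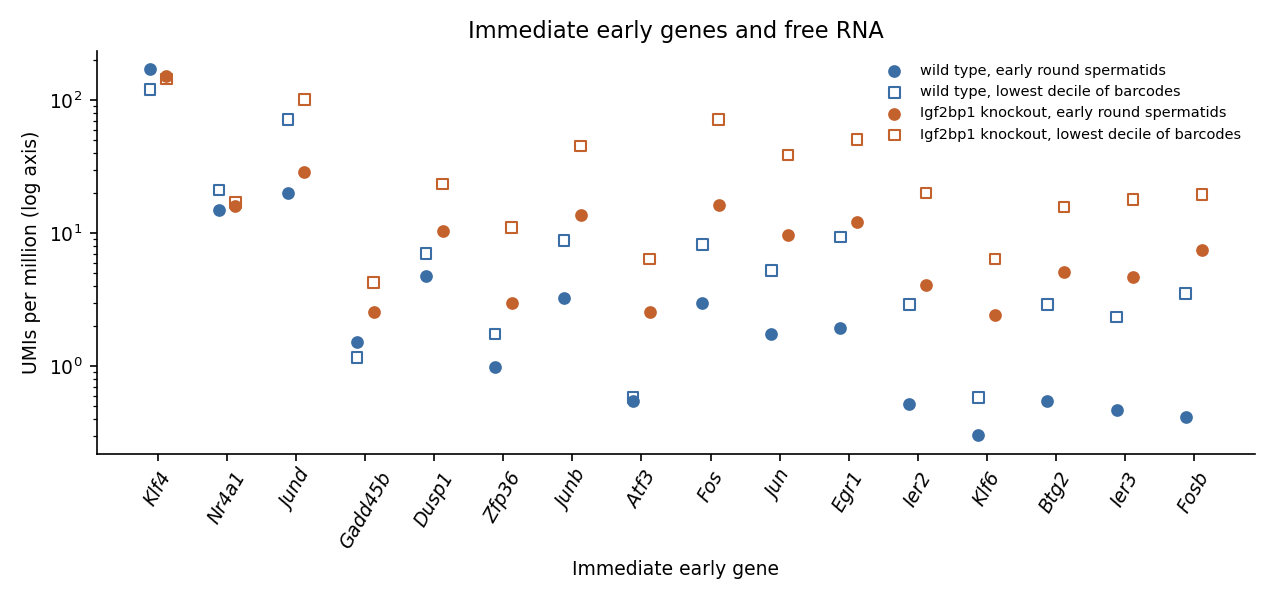
Level of 16 immediate early genes (y axis, CPM on a log axis) in early round spermatids (filled circles) and in the lowest decile of barcodes (open squares) of the wild type and knockout libraries. For Fos the members stood at 2.98 and 16.4 CPM, and for each of the 12 genes called higher both knockout values lie above both wild type values of the same kind.

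The heat shock and apoptosis lists had medians within 0.2 of that of all genes. In both, a larger share was called higher than the 5.44% of all genes with at least 20 UMIs. Of 20 heat shock and chaperone genes 3 were higher and none lower (median 0.05): Hspa8, the constitutive HSP70, at 12.8 and 23.4 CPM (log2 0.87, 0.63 to 1.11), Hspd1, the mitochondrial chaperonin, at 3.75 and 6.54 CPM, and Hspa1a, the inducible HSP70, with 10 and 12 UMIs. Hspa8 stood at 0.35 with the protamine limit at 0.6% and at 0.58 with at least 16 spermatid UMIs, and in the lowest decile at 26.9 and 62.6 CPM, above the members in both libraries. Hspd1 stood at 0.46, under the limit, with equal weights of the bins and at 0.17 with at least 16 spermatid UMIs, and Hspa1a did not pass with the protamine limit at 0.6%. Of 13 apoptosis genes 2 were higher and none lower (median −0.13): Bax, which opens the mitochondrial membrane, with 44 and 43 UMIs (log2 1.97, 1.33 to 2.61) and 30.2% of the knockout ones in 1 cell, and Cdkn1a, a cell cycle inhibitor, with 60 and 26 UMIs (0.80, 0.08 to 1.49). Bax did not pass with the protamine limit at 0.6%. Cdkn1a did not pass there, nor in 5 other settings, among them free RNA taken off (0.71) and a minimum of 10000 UMIs (0.61).

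Genes were also ranked by the size of the difference, and those that fell are given first. Tmed6, a protein of vesicle transport between endoplasmic reticulum and Golgi, fell from 46.5 CPM (44.3 to 48.8) to 19.2 CPM (16.4 to 22.2), log2 −1.28 (−1.51 to −1.05). The gap opened along the order, from −0.37 in entry to −1.70 in middle and −1.41 in advanced members, and the share of members with a UMI, each thinned to 5000, was 16.98% and 8.997%. Jam2, a junction adhesion protein, fell from 28.0 to 13.7 CPM (−1.03, −1.31 to −0.76), with −0.31 in entry and −1.06 in advanced members. Fmnl1, a formin that shapes actin, fell from 25.2 to 12.2 CPM (−1.05, −1.35 to −0.76). Dynlt1b, a light chain of cytoplasmic dynein, fell from 44.7 to 21.7 CPM (−1.04), and its near-identical neighbours on chromosome 17, Dynlt1a and Dynlt1c, stood at −0.64 and −0.85, so reads could be split among the 3. Lpcat4, a phospholipid enzyme, had 198 and 17 UMIs (−1.54), Olfr183, an olfactory receptor, 241 and 19 (−1.66), and Rapgef3, an exchange factor activated by cyclic AMP, 65 and 2 (−3.02). The non-coding transcript 1700008N11Rik fell from 26.9 to 13.1 CPM (−1.04). Lepr, the leptin receptor, had 88 and 5 UMIs, and without the richest cell it no longer passed.

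Non-coding transcripts led the genes that rose. AC113204.1 on chromosome 12 rose from 53.7 CPM (51.3 to 56.1) to 109 CPM (102 to 116), log2 1.02 (0.91 to 1.13), and stood at 1.11, 0.72 and 1.15 over the bins. On chromosome 9, 4930568E12Rik rose from 19.6 to 49.4 CPM (1.33, 1.16 to 1.504), and Gm47051, which starts 155 bases beyond it, from 9.05 to 32.0 CPM (1.82, 1.59 to 2.06). Further ones were 4930504D19Rik (4.33 to 11.7 CPM), 1700054O05Rik (4.50 to 11.5 CPM) and AC135964.2 (0.552 to 3.43 CPM). Coding genes among the 12 highest were sparse: Fndc5, the precursor of irisin, had 39 and 33 UMIs, Cngb1, a channel subunit gated by cyclic nucleotides, 53 and 41, and Ubr2, a ubiquitin ligase of meiosis, 43 and 32. Of Hist1h2ap UMIs in the knockout 60.1% lay in 1 cell, of Hist1h1a 51.7% and of Elavl2 34.8%, and Hist1h1a no longer passed without its richest cell.

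Of the genes on chromosome 16, 28 were called, 11 in 1 stretch and 17 outside it. Between the outermost of the ranked genes there, at 58995357 and 86806513, a stretch picked after the values were seen, 7 of 52 genes were higher and 4 lower, 21.2% in all, against 4.67% of the other 364 genes of the chromosome. Called genes bound the stretch, so part of this gap is set by how it was picked. Over the whole chromosome 6.73% were called. App, which encodes the source of amyloid beta, lies beside Jam2 and rose, at 60.5 CPM in wild type and 114.6 CPM in knockout members (log2 0.92, 0.81 to 1.03). A UMI of App was found in 60.3% of wild type and 75.8% of knockout members, and in 22.4% (20.2 to 24.8) and 38.6% (33.7 to 43.6) after thinning. In the lowest decile the share was 4.82% and 10.1%, so the free RNA differed in the same direction. App and Jam2 stood at 0.60 and −1.47 in late spermatocytes.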

How the data were processed

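UMIs of 31053 genes were counted per barcode in 2 polyA RNA libraries. The deposited values are raw gene counts that the authors made with Cell Ranger 2.2.0 and STAR on mm10, per the submitters' processing notes; the file header names software version 3.1.0. No annotation version is given in the sources used here, and 30934 genes matched GENCODE M21. The cell gates and gene lists were chosen with earlier results of these data known.

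UMIs were summed over members per library and scaled to CPM, with exact Poisson intervals for levels, exact conditional binomial intervals for ratios, Clopper-Pearson intervals for shares and Katz log intervals for ratios of shares (95%). The calculations used python 3.11.15, numpy 2.4.6, scipy 1.17.1 and pandas 2.3.3, with edgeR 4.0.16 in R 4.3.3 for TMM factors only. They were also run on simulated sums with counting error alone, so UMIs that cluster in single cells were not covered. A call needed 1.5-fold, an interval leaving out 1 and 50 UMIs over both libraries (20 for lists).

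Named genes were Igf2bp1 to Igf2bp3, gate genes, markers, up to 12 members per list by size of difference or UMIs, the 12 highest and 12 lowest ratios, the 20 highest levels, the 15 leading genes and neighbours of named genes. Ranked ratios used the bound nearest to 0 and a level of at least 0.5 times that over all barcodes where the gene was higher. Numbered gene models, haemoglobin, mitochondrial and ribosomal protein genes were left out of that ranking. Some ranked genes are not reported here. Stage genes, X genes outside the lists and the chromosome 16 stretch were picked after their values were seen. No doublet caller was run, and 0 members had over 20% mitochondrial UMIs.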

Additional observations from a re-analysis of the deposited data

How the results depend on the processing

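No paired analysis was possible because each genotype has 1 library, so no replicate could be left out either. The number of cells and the counting error limit all values, and variation between animals is not covered. In each change below the cause was not tested unless fewer cells or UMIs make it. With at least 10000 UMIs per barcode (1295 and 362 members), the log2 ratio of the share was −1.43 among deep barcodes and −0.10 among the germ cell gates. With protamine UMIs under 0.6% (226 and 136 members), these were −1.14 and 0.36, and the entry bin ratio −1.06. Genes higher were then 216, X genes 15, immediate early genes 7, list medians over 0.2 away from that of all genes 5 (2 in the main setting), and 15 of the 24 ranked genes still passed. There Elavl2 (−1.14), Zfp36 (−0.31), Hspd1 (−0.20), Lepr (0.12), 1700008N11Rik (0.049) and Stra8 (0.86) changed direction. With at least 16 spermatid UMIs (1252 and 361 members), the germ cell ratio was −0.25 and the X share ratio 0.18, and Hist1h2ap (−1.70), Hist1h1a (−1.49) and Hist1h2aa (−0.79) changed direction. With under 3 Leydig UMIs (1317 and 292 members), the share ratios were −2.58 and −0.29, the X share ratio 0.22 and the list medians 4. The X share ratio was 0.23 without members above the 95th percentile of UMIs and 0.16 with equal weights of the bins. With members thinned to 5000 UMIs it was 0.27, with 234 genes higher and 220 lower, 25 X genes, 7 immediate early genes and 5 list medians. Genes higher numbered 1275 with no minimum of UMIs, 123 (187 lower) with at least 200 UMIs and 237 (117 lower) at 2-fold. TMM and median of ratios factors moved ratios by −0.03 and −0.04 and reversed none.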
